A study of Mus musculus with 12 samples.

Results

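HM1 cells carrying a short hairpin RNA against St3gal3 were compared in 2 settings: tumor tissue and culture. HM1 is a murine ovarian cancer cell line, and St3gal3 encodes a sialyltransferase that caps sugar chains on proteins and lipids with sialic acid. The comparison covered 3 knockdown tumors and 3 knockdown cultures out of 12 RNA sequencing libraries, and 14428 of 55425 gene identifiers listed for both tissues. A gene entered if its identifier was not an assembled-transcript identifier, its listed length was at least 200 bases and its mean was at least 1 TPM (the length-scaled share of a library's transcripts) in either group. TPM was first rescaled to the same sum over the shared genes.

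The knockdown samples are labelled with the genotype ST3GAL3 knockdown, and all are HM1. The other 6 libraries, 3 cultures and 3 tumors of HM1 with a control hairpin and the genotype label wild type, are used here only to set the knockdown line beside them. The labels do not name the host mouse strain, the site of the tumors, the number of hairpins or clones, or whether replicates are separate cultures and separate animals. P-values here reflect the spread among the deposited samples, and part or all of that spread may be technical. The series title places the study in the setting of tumor immunity and resistance to immunotherapy.

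A tumor is a mixture. Beside the cancer cells it holds macrophages and other leukocytes of the host, fibroblasts that lay down collagen, endothelial cells and pericytes of vessels, and its RNA is the sum over all of them. Cultured cells of a line are a nearly pure population grown in rich medium with oxygen and nutrients in excess. In bulk samples fewer cells of a type and less RNA per cell cannot be told apart, and a higher level in a tumor can come from the cancer cells, from host cells or from both.

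Before the results, 3 properties of the libraries matter. Across genes, Pearson's r of log2(TPM + 1) was 0.990 to 0.991 among the knockdown cultures, 0.983 to 0.985 among the knockdown tumors and 0.811 to 0.839 between them. Between 12147 and 12469 genes reached 1 TPM in a knockdown culture and between 13580 and 14078 in a knockdown tumor. The tables of cells and of tumors list different sets of assembled transcripts and were normalized separately, so tissue and table type cannot be told apart. Sequencing depth is unknown, since TPM keeps no depth.

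Of the 14428 genes, 2554 were called higher in knockdown tumors than in knockdown cultures and 1271 lower at a log2 change of at least 1 (limma, Benjamini-Hochberg adjusted p under 0.05). These are 17.7% and 8.81% of the genes tested. Without the minimum change, 5227 genes (36.2%) were called higher and 4227 (29.3%) lower, 65.5% in all, and the median log2 change over all genes was 0.08. Under quantile normalization the split turned, with 4219 genes called higher and 5909 lower, and the median moved by -0.21. In 70.6% of the genes the 2 groups of 3 did not overlap, with the tumors above in 39.5% and below in 31.1%. Changes are on the scale of log2(TPM + 1) and understate those of low genes.

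The genes fell into 3 classes by where they reached the minimum. In both groups 11693 genes did, of which 3349 (28.6%) were called higher and 3794 (32.4%) lower, with a median of -0.01. Another 2121 reached it only in knockdown tumors and 614 only in knockdown cultures, and these had to differ, since the minimum chose them. For that reason gene lists are described below by the level in each library and by the members that reached the minimum in both groups. For a gene that reached it only in tumors or only in cultures, an adjusted p given below is a description, not separate support for a difference. Among the members 572 were listed at 0 in all 3 cultures and 92 in all 3 tumors, and no fold is given for these. Just inside the minimum stood Cd160, at a mean of 0.110 TPM in cultures and 1.0002 TPM in tumors, and just outside it 6530402F18Rik, at 0 and 0.9999 TPM.

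**Figure D1:**
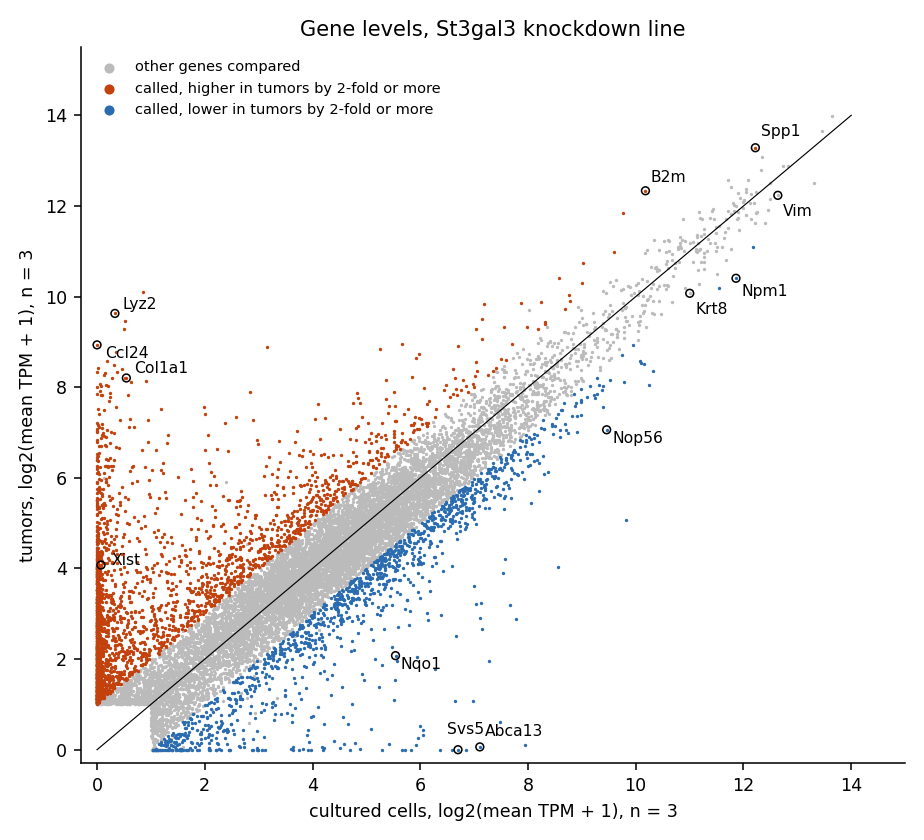
Mean level of each gene in knockdown cultures (x axis) and knockdown tumors (y axis), both as log2(mean TPM + 1) over 3 libraries, for the 14428 genes compared. Orange points are the 2554 genes called higher by 2-fold or more, blue points the 1271 called lower, and the line marks equal levels; Lyz2, Ccl24 and Col1a1 lie along the left edge, and a smaller arm of genes lies along the bottom.

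The targeted gene comes first. St3gal3 (ENSMUSG00000028538) stood at 1.57, 1.29 and 1.89 TPM in the knockdown cultures and at 7.38, 5.98 and 5.86 TPM in the knockdown tumors. Every tumor lay above every culture (log2 change 1.52, SE 0.151, limma adjusted p = 2.24e-05). In the control line its level was 9.89, 12.9 and 13.4 TPM in cultures and 14.2, 15.7 and 15.6 TPM in tumors. That change was not called (log2 change 0.32, limma adjusted p = 0.0584), and the changes of the 2 lines differed by 1.202 (limma adjusted p = 0.0121). Every knockdown library lay below every control library of its tissue. The difference lost its call under quantile normalization (adjusted p = 0.0508) and without knockdown tumors 1 and 3 (adjusted p = 0.0858, limma). Leukocyte and stromal lists, described below, summed to far more in the tumors than in the cultures. Their part in the St3gal3 level was not tested.

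Among the 20 sialyltransferases listed, 12 reached the minimum in either group and 10 in both. Of the 12, 5 were called higher and 1 lower, against 36.2% and 29.3% of all genes. Of the 10, 4 were called higher and 1 lower, against 28.6% and 32.4% of such genes. St3gal5, the enzyme that makes the ganglioside GM3, was lower, at 85.1, 85.2 and 75.9 TPM in cultures and 60.4, 66.4 and 60.8 TPM in tumors (log2 change -0.39, SE 0.0813, limma adjusted p = 0.00245). St3gal6 was higher, at 32.05, 27.7 and 27.7 and then 53.5, 47.3 and 44.2 TPM (log2 change 0.71, SE 0.104, limma adjusted p = 2.74e-04). St6gal1, which forms another sialic acid linkage, found on many leukocyte glycoproteins, stood at 6.87, 8.32 and 6.07 TPM in cultures and 12.1, 11.1 and 13.1 TPM in tumors (log2 change 0.71, SE 0.138, limma adjusted p = 0.00162). None of these 3 genes had overlapping groups, as in 70.6% of all genes. St3gal5 and St6gal1 were not called without tumors 1 and 3. St8sia4, a polysialyltransferase, was at a mean of 0.00345 ± 0.00597 TPM in cultures and 2.06 ± 0.1397 TPM (SD, n = 3) in tumors (limma adjusted p = 6.66e-06). St6gal2 was uneven, with 16.3, 10.1 and 0 TPM in the 3 tumors, and was not called. St3gal1, St3gal2 and St3gal4, which form the same linkage as the targeted enzyme, were not called, with log2 changes of 0.198, -0.16 and 0.09.

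Sialic acid is made from a sugar precursor, activated and carried into the Golgi before a sialyltransferase can use it. Of 11 listed genes of sialic acid synthesis and removal, 7 reached the minimum in both groups. Of the 7, 5 were called lower and 0 higher, against 32.4% and 28.6% of such genes. The 5 were the listed genes of synthesis and transport, though Slc35a1 was not called without culture 1 or 3 or without tumor 1 or 3. Gne, whose product is the key enzyme of the pathway, stood at 31.9, 28.7 and 32.99 TPM in cultures and 14.3, 13.8 and 13.98 TPM in tumors (log2 change -1.098, SE 0.0972, limma adjusted p = 1.04e-05). Nans, Nanp, Cmas and Slc35a1, the next enzymes and the Golgi transporter, changed by -0.47, -0.64, -0.57 and -0.296 on the log2 scale. Npl, which breaks sialic acid down, went the other way, from a mean of 0.0241 ± 0.0417 TPM to 13.9 ± 2.91 TPM (SD, n = 3, limma adjusted p = 9.47e-08). The sialidases Neu1 and Neu3 were not called, at log2 changes of 0.07 and 0.02. The Siglecs, receptors on leukocytes that bind sialic acid, were near 0 in culture: 6 of 9 reached the minimum, only through the tumors, and the summed level of the 9 was 0.9, 0.71 and 0.35 TPM in cultures and 31.7, 23.5 and 33.4 TPM in tumors. Cd33 led them at 7.75, 7.28 and 11.01 TPM in tumors, followed by Siglec1 at 7.76, 4.45 and 7.05 TPM.

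The abundant markers of the cancer cells fell and stayed among the higher levels. Of 15 epithelial and ovarian tumor genes, 9 reached the minimum in either group, 3 of them called higher and 5 lower, with a median of -0.68. Of the 6 at the minimum in both groups, 1 was called higher and 5 lower, against 28.6% and 32.4% of such genes, with a median of -0.87. Their summed level was 6079, 5997 and 6215 TPM in cultures and 3222, 3044 and 2949.98 TPM in tumors, which is 1.98-fold lower (exact two-sided permutation test, p = 0.10, the smallest that 3 against 3 allows). The 3 simple-epithelium keratins made up most of it. Krt8 stood at 2079.9, 1997 and 2073 TPM in cultures and 1161, 1054 and 1012 TPM in tumors (log2 change -0.93, SE 0.0624, limma adjusted p = 1.73e-06). Krt18 stood at 1672, 1559 and 1680.5 and 1022, 908 and 891 TPM (log2 change -0.801, SE 0.0672, limma adjusted p = 7.46e-06). Krt19 stood at 953, 1236 and 1006 and 639, 678 and 662 TPM (log2 change -0.68, SE 0.0926, limma adjusted p = 1.69e-04). No keratin level of a tumor reached that of a culture, and Krt19 was not called without tumors 1 and 3.

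Wfdc2, the gene of the ovarian cancer serum marker HE4, fell further, from 1312, 1128 and 1392 TPM to 328, 340.1 and 315 TPM (log2 change -1.95, SE 0.0814, limma adjusted p = 8.33e-08). Amhr2, the receptor of anti-Muellerian hormone, stood at 41.6, 58.3 and 45.5 TPM in cultures and 23.5, 22.8 and 23.1 TPM in tumors (log2 change -1.02, SE 0.124, limma adjusted p = 8.32e-05). Msln, mesothelin, was higher in tumors, at 41.2, 33.5 and 34.99 TPM against 19.2, 17.3 and 16.99 TPM (log2 change 0.99, SE 0.109, limma adjusted p = 4.16e-05). Cdh1, E-cadherin, was close to 0 in culture, at 0.11, 0.01 and 0.05 TPM, and reached 4.32, 3.5 and 5.44 TPM in tumors. Epcam, Krt7, Muc16, Pax8, Cldn4 and Cldn7 were below the minimum in both groups. Vim, the intermediate filament of mesenchymal cells, was high in both, at 6916, 5709 and 6489 TPM in cultures and 5091, 4658 and 4705 TPM in tumors (log2 change -0.4, SE 0.0739, limma adjusted p = 0.00116), and was not called without tumors 1 and 3.

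Most leukocyte transcripts were near 0 in culture and high in tumors. The 10 pan-leukocyte genes summed to 9.52, 9.35 and 8.81 TPM in the knockdown cultures and 1220.3, 1179 and 1284 TPM in the knockdown tumors, a 133-fold difference in the means (exact two-sided permutation test, p = 0.10). All 10 were called higher, with a median of 5.66, but 7 of them reached the minimum only through the tumors. The 3 at the minimum in both groups were all called higher, against 28.6% of such genes. Ptprc, the gene of the CD45 surface protein of all nucleated blood cells, stood at 0, 0.04 and 0 TPM in cultures and 28.2, 24.2 and 32.6 TPM in tumors (log2 change 4.85, SE 0.144, limma adjusted p = 1.05e-08). Srgn, the core protein of leukocyte granules, stood at 0.13, 0.08 and 0.43 TPM and 243, 327 and 315 TPM (log2 change 7.93, SE 0.154, limma adjusted p = 1.18e-09). For the cell type lists that follow, the exact p of the summed level was also 0.10 unless another value is given.

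Macrophage genes had the highest summed level of the leukocyte lists. The 20 monocyte and macrophage genes were all called higher, but 15 of them reached the minimum only through the tumors. The 5 at the minimum in both groups were all called higher, against 28.6% of such genes. The list summed to 55.9, 61.9 and 60.3 TPM in cultures and 3241, 2522 and 3073 TPM in tumors. Lyz2, lysozyme, had the highest log2 change of all genes compared, from 0.35, 0.28 and 0.14 TPM to 844, 684 and 843 TPM (log2 change 9.29, SE 0.116, limma adjusted p = 1.91e-10). C1qa, a chain of the complement starter C1q that tissue macrophages make, went from 0.08, 0.07 and 0.12 TPM to 358, 257 and 303 TPM (log2 change 8.12, SE 0.131, limma adjusted p = 6.15e-10). Csf1r, the receptor for the macrophage growth factor, stood at 39.5, 28.7 and 42.4 TPM in tumors against 0.02, 0.03 and 0.03 TPM, and Adgre1, which encodes F4/80, at 22.2, 13.4 and 16.5 TPM against a listing of 0 in every culture. Apoe, a lipid carrier, rose from 6.44, 8.55 and 8.69 TPM to 526, 341 and 541 TPM (log2 change 5.704, SE 0.192, limma adjusted p = 1.36e-07). Cd68 and Cd14 were already present in culture, at 17.6 ± 0.671 TPM and 24.4 ± 1.61 TPM, and reached 91.1 ± 2.73 TPM and 81.6 ± 8.402 TPM in tumors (SD, n = 3).

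Other genes of the myeloid compartment were listed at 0 in every knockdown culture. Ccl24, an eosinophil attractant, stood at 468, 513 and 484 TPM in the tumors. Ccl8 stood at 346, 297 and 328 TPM, Wfdc17 at 133, 184 and 125 TPM and the lectin gene Clec4n at 125, 130.4 and 130.2 TPM. These genes were chosen as the highest in tumors among those at 0 in culture, so their levels are a description. Mmp12, macrophage elastase, had 0.2, 0.13 and 0.06 TPM in cultures and 291, 445 and 409 TPM in tumors (log2 change 8.38, SE 0.158, limma adjusted p = 1.11e-09).

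Neutrophil genes were present at a lower level. Of 12, 10 reached the minimum, 7 of them only through the tumors, 1 only through the cultures and 2, both called higher, in both groups. Among all genes at the minimum in both groups, 28.6% were called higher. The list summed to 8.17, 7.4 and 6.64 TPM in cultures and 354, 348 and 449.9 TPM in tumors. S100a9, an alarmin of neutrophils and monocytes, went from 0, 0.4 and 0 TPM to 119, 126 and 149.7 TPM (log2 change 6.88, SE 0.163, limma adjusted p = 2.97e-09), and S100a8 from 0.145 ± 0.251 TPM to 55.99 ± 8.87 TPM (SD, n = 3). Il1b, which activated myeloid cells make, went from 0.17, 0 and 0.04 TPM to 114, 104 and 149 TPM (log2 change 6.84, SE 0.152, limma adjusted p = 2.04e-09). The granule genes of neutrophil precursors, Ngp and Camp, were below the minimum in both groups. Ly6g, the member that passed only through the cultures, stood at 3.2, 1.84 and 1.98 TPM in cultures and 0.77, 0.37 and 0.65 TPM in tumors.

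Mast cell genes were at or near 0 in every culture. Of 9, 8 reached the minimum, all through the tumors, and the list summed to 0.59, 0.57 and 0.701 TPM in cultures and 202, 174 and 159 TPM in tumors. Mcpt4 and Tpsb2, proteases of connective tissue mast cells, were listed at 0 in every knockdown culture and stood at 56.9, 42.4 and 38.7 TPM and 47.01, 42.9 and 36.9 TPM in tumors. Cpa3, mast cell carboxypeptidase, went from 0, 0 and 0.04 TPM to 16.6, 14.7 and 13.04 TPM (log2 change 3.95, SE 0.139, limma adjusted p = 2.74e-08). Dendritic cell genes summed to 2.83, 2.85 and 2.17 TPM in cultures and 153, 116 and 132 TPM in tumors, and 9 of 10 reached the minimum, 8 of them only through the tumors. Itgax, the CD11c gene, led the surface markers at 23.4, 21.9 and 30.9 TPM, while Clec9a and Xcr1 of cross-presenting dendritic cells stood at 2.42, 1.46 and 2.19 TPM and 1.53, 0.65 and 1.43 TPM. The change of Xcr1 turned from 0.92 to -0.13 under quantile normalization, with no call.

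On the TPM scale, which is per length, lymphocyte lists summed to less than the macrophage list. The T cell list summed to 1.84, 2.48 and 2.18 TPM in cultures and 89.5, 68.97 and 79.2 TPM in tumors, and 14 of 16 genes reached the minimum, 13 of them only through the tumors. Cd3e, of the T cell receptor complex, was listed at 0 in every culture and at 6.11, 4.41 and 5.05 TPM in tumors (limma adjusted p = 5.85e-07). Cd4 stood at 6.62, 3.56 and 5.95 TPM and Cd8a at 5.19, 4.71 and 5.47 TPM in the tumors, with tumor 2 the lowest in both. Of 15 cytotoxic and natural killer cell genes, 14 reached the minimum, 12 of them only through the tumors, and the list summed to 16.4, 15.9 and 13.9 TPM and 202, 243 and 197 TPM. Gzmb, granzyme B, was at 0 in every knockdown culture and at 65.1, 102 and 58.6 TPM in tumors (limma adjusted p = 1.48e-08). Prf1, perforin, was at 0 and then 24.9, 31.4 and 21.1 TPM (limma adjusted p = 2.27e-08), and Nkg7 at 0 and then 20.1, 21.96 and 17.9 TPM. Gzmf, another granzyme, was at 0 and 101, 185 and 115 TPM. Ifng, the gene of interferon-gamma, stood at 2.65, 2.38 and 1.56 TPM in tumors and at 0 in cultures (limma adjusted p = 2.36e-05).

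Some lymphoid names were expressed by the cultured line itself. Tigit, known as an inhibitory receptor of T and natural killer cells, stood at 52.5, 37.8 and 50.02 TPM in cultures and 18.3, 14.8 and 13.6 TPM in tumors (log2 change -1.52, SE 0.151, limma adjusted p = 2.21e-05). Eomes, a transcription factor of cytotoxic lymphocytes, stood at 14.1, 13.5 and 10.8 TPM and 4.51, 3.68 and 4.43 TPM (log2 change -1.401, SE 0.142, limma adjusted p = 2.55e-05). Both fell, with no overlap between the groups.

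B cell and plasma cell genes parted from each other. Ms4a1 and Cd79a, which mark B cells, stayed below the minimum in both groups, and 5 of 12 listed genes reached it, only through the tumors. Igkc, the kappa light chain constant gene, went from 0.8, 0.19 and 0.32 TPM in cultures to 1029, 156 and 929 TPM in tumors (log2 change 8.56, SE 0.789, limma adjusted p = 2.93e-04), and Jchain, which joins secreted antibodies, from 0.03, 0 and 0 TPM to 19.8, 4.62 and 19.4 TPM (log2 change 3.72, SE 0.521, limma adjusted p = 0.00101). Tumor 2 was the lowest for both. The list summed to 1069, 165 and 973 TPM in the tumors, and levels of immunoglobulin genes are uncertain because their segments share sequence.

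**Figure D2:**
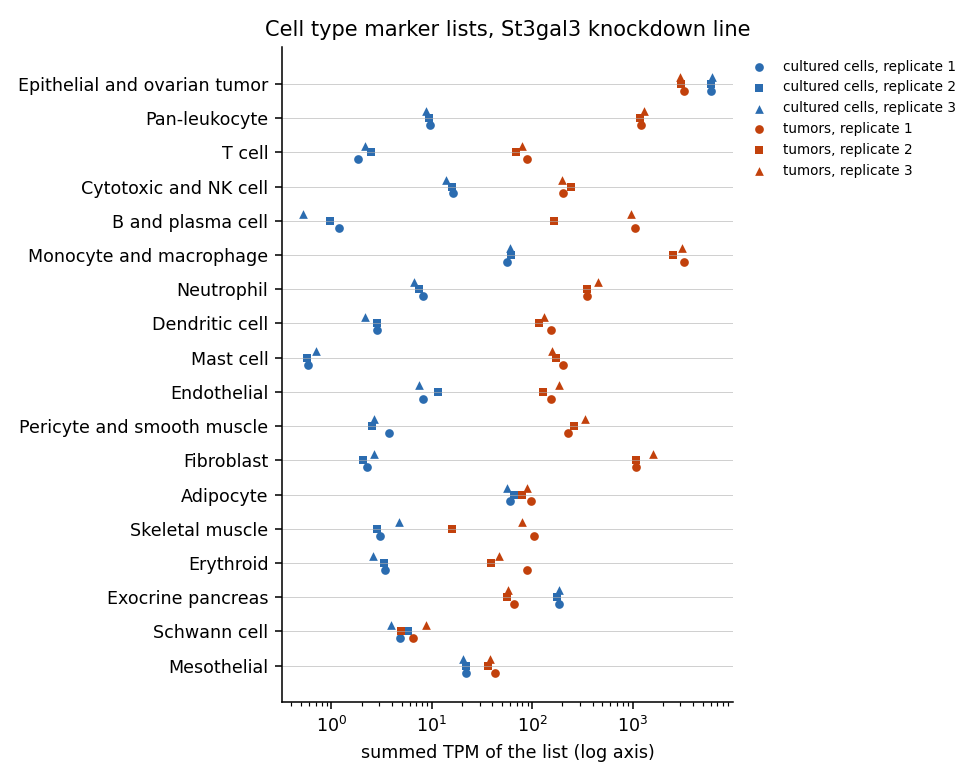
Summed TPM (log axis) of each cell type marker list in each of the 3 knockdown cultures (blue) and 3 knockdown tumors (orange). Leukocyte and stromal lists lie to the right in tumors, epithelial and exocrine pancreas lists to the left, and tumor 2 (square) stands below the other tumors for the plasma cell and skeletal muscle lists.

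Stromal genes were at or near 0 in culture and high in tumors. The 14 fibroblast genes summed to 2.24, 2.07 and 2.66 TPM in the knockdown cultures and 1077, 1082 and 1594 TPM in the knockdown tumors, and all 14 reached the minimum only through the tumors. Dcn, decorin, stood at 0.29, 0.08 and 0.15 TPM and 40.5, 39.04 and 54.3 TPM (log2 change 5.27, SE 0.158, limma adjusted p = 1.12e-08), and Pdgfra, a growth factor receptor of fibroblasts, at 0.44, 1.3 and 0.64 TPM and 6.13, 4.32 and 9.47 TPM (log2 change 2.06, SE 0.266, limma adjusted p = 1.38e-04). Col1a1, a chain of fibrillar type I collagen, went from 0.28, 0.23 and 0.87 TPM to 239.8, 254 and 388 TPM (log2 change 7.65, SE 0.223, limma adjusted p = 2.88e-08). In all 3 genes the lowest tumor stood far above the highest culture.

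Of 19 collagen genes 18 reached the minimum. Of the 7 that did in both groups, 5 were called higher, against 28.6% of such genes. Basement membrane collagens differed from fibrillar ones in where they started. Col4a1 was already at 64.1, 62.1 and 46.05 TPM in culture and stood at 119, 123 and 141 TPM in tumors (log2 change 1.15, SE 0.1298, limma adjusted p = 5.28e-05), and Col18a1 at 128 ± 17.1 TPM and then 221 ± 10.8 TPM (SD, n = 3). Col7a1 and Col8a1 were not called, at log2 changes of -0.18 and 0.04. All 8 matrix metalloproteinase and inhibitor genes at the minimum in both groups were called higher, against 28.6% of such genes. The other 5 reached it only through the tumors. Mmp13, a collagenase, was abundant in both, at 309, 287 and 277 TPM and 549, 685 and 629.7 TPM (log2 change 1.09, SE 0.0866, limma adjusted p = 5.37e-06), and Mmp9, a gelatinase, went from 0.46, 0.48 and 0.38 TPM to 232, 335 and 309.6 TPM (log2 change 7.65, SE 0.142, limma adjusted p = 1.004e-09). Timp1, an inhibitor of these enzymes, went from 335, 282 and 357 TPM to 463, 511 and 467 TPM (log2 change 0.57, SE 0.091, limma adjusted p = 4.71e-04).

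Vessel genes were also higher in tumors, at lower levels. The 15 endothelial genes summed to 8.11, 11.4 and 7.48 TPM in cultures and 153, 128 and 185 TPM in tumors. Of these, 14 reached the minimum, 12 of them only through the tumors and 2 in both groups. Both of the 2 were called higher, against 28.6% of such genes. Pecam1 (CD31) stood at 20.1, 17.4 and 23.9 TPM in tumors against 0.17, 0.22 and 0.07 TPM (log2 change 4.21, SE 0.152, limma adjusted p = 3.19e-08), and Cdh5, VE-cadherin, at 10.5, 7 and 13.04 TPM against 0, 0 and 0.03 TPM (log2 change 3.43, SE 0.203, limma adjusted p = 7.68e-07). The 12 pericyte and smooth muscle genes summed to 3.74, 2.51 and 2.64 TPM and 226, 259 and 338 TPM, and 11 of the 12 reached the minimum only through the tumors. Acta2, smooth muscle actin, went from 0.55, 0.27 and 0.14 TPM to 83.2, 93.5 and 125 TPM (log2 change 6.26, SE 0.178, limma adjusted p = 8.397e-09), and Pdgfrb from 0.00344 ± 0.00595 TPM to 27.3 ± 4.76 TPM (SD, n = 3).

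Genes of tissues that can surround a tumor were present too. The 12 skeletal muscle genes summed to 3.02, 2.86 and 4.74 TPM in cultures and 103, 15.8 and 78.97 TPM in tumors, with tumors 1 and 3 well above tumor 2. Their part in other results was not tested. Named genes and lists that changed in fits without tumors 1 and 3 are given with the alternatives. Acta1, skeletal actin, stood at 33.5, 3.57 and 24.1 TPM in the 3 tumors. Of the 12, 9 reached the minimum, 8 of them only through the tumors. Acta1 was not called with any 1 culture left out. Adipocyte genes were scarce, with Adipoq, Plin1, Lep, Retn and Cidec below the minimum in both groups, though Fabp4 stood at 19.6, 7.45 and 13.8 TPM in tumors. Erythroid genes were led by Hbb-bs, at 39.97, 11.1 and 18.3 TPM in tumors and 0.16, 0.29 and 0.12 TPM in cultures. The Schwann cell list summed to 4.78, 5.77 and 3.96 TPM and 6.47, 4.92 and 8.76 TPM (exact two-sided permutation test, p = 0.20), with no member called.

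Antigen presentation genes were higher. Class I molecules show peptides from inside a cell to cytotoxic T cells, and the peptides are cut by the proteasome, carried by the transporter Tap and loaded in the endoplasmic reticulum. All 20 genes of this route were called higher, 19 of them at the minimum in both groups, against 28.6% of such genes, with a median of 1.83 over those 19. Without tumors 1 and 3 the call was kept by 18 of the 20, and Calr was not among them. H2-K1, a classical heavy chain, stood at 835, 885 and 870.2 TPM in cultures and 3876, 3813 and 3325 TPM in tumors (log2 change 2.08, SE 0.0679, limma adjusted p = 1.73e-08). B2m, the light chain, stood at 1124, 1167 and 1186 TPM and 5207, 5366 and 4929 TPM (log2 change 2.15, SE 0.0531, limma adjusted p = 3.67e-09). Both genes were already abundant in culture, and no tumor overlapped a culture. Tap1 went from 10.1, 15.2 and 10.1 TPM to 114, 113 and 100.2 TPM (log2 change 3.13, SE 0.151, limma adjusted p = 2.04e-07). Psmb9, an immunoproteasome subunit, went from 2.84, 3.94 and 2.16 TPM to 215, 195 and 155 TPM (log2 change 5.59, SE 0.179, limma adjusted p = 2.2e-08), and Psmb8 from 0.127 ± 0.111 TPM to 118 ± 12.8 TPM (SD, n = 3). The smallest changes of the list were in the chaperones, with 0.46 for Pdia3 and 0.603 for Calr. H2-Q genes are near-identical to one another, and their split is uncertain.

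Class II molecules present peptides to CD4 T cells and are made mainly by dendritic cells, macrophages and B cells. All 11 listed genes were called higher, against 36.2% of all genes, but 10 of them reached the minimum only through the tumors. Only 1 was at the minimum in both groups. Their sum went from 6.04, 6.098 and 4.38 TPM to 3216, 2140.5 and 2954 TPM. Cd74, the invariant chain, was the most abundant, at 0.87, 0.6 and 0.97 TPM in cultures and 1298, 826 and 1161 TPM in tumors (log2 change 9.22, SE 0.165, limma adjusted p = 1.18e-09). H2-Aa stood at 0.35, 0.13 and 0.34 TPM and 508, 327 and 469 TPM (log2 change 8.396, SE 0.166, limma adjusted p = 1.18e-09), and H2-Eb1 at 0.44, 0.07 and 0.24 TPM and 420.1, 255 and 404 TPM (log2 change 8.15, SE 0.201, limma adjusted p = 7.001e-09). Ciita, the transactivator of this gene family, stood at 0, 0.02 and 0 TPM and 10.04, 5.54 and 8.06 TPM.

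Interferons induce genes through response elements in their promoters. All 26 interferon-stimulated genes were called higher, but 16 of them reached the minimum only through the tumors. The 10 at the minimum in both groups were all called higher, against 28.6% of such genes, with a median of 2.78. Isg15, a ubiquitin-like protein, stood at 0.91, 2.1 and 1.47 TPM in cultures and 134, 132 and 99.9 TPM in tumors (log2 change 5.64, SE 0.189, limma adjusted p = 2.31e-08). Bst2, which tethers virus particles, was already high in culture, at 98.5, 99.6 and 109.5 TPM, and reached 498, 507 and 425 TPM (log2 change 2.203, SE 0.0841, limma adjusted p = 4.66e-08). Oasl1 had the smallest change of the list, at 0.37. All 21 genes that interferon-gamma induces were called higher, but 16 of them reached the minimum only through the tumors. The 5 at the minimum in both groups were all called higher, against 28.6% of such genes. Socs1 of this list was not called without tumors 1 and 3. Cxcl10, which attracts activated T cells, stood at 1.24, 0.62 and 0.94 TPM and 134, 105 and 90.3 TPM (log2 change 5.83, SE 0.173, limma adjusted p = 1.05e-08), and Cxcl9 at 0, 0.02 and 0 TPM and 84.2, 68.4 and 93.6 TPM (log2 change 6.35, SE 0.1399, limma adjusted p = 1.94e-09). Irf1, a transcription factor, went from 28.1, 32.01 and 25.9 TPM to 231, 210.4 and 158 TPM (log2 change 2.75, SE 0.141, limma adjusted p = 4.197e-07). Gbp2 went from 0.1102 ± 0.1004 TPM to 319.6 ± 75.04 TPM (SD, n = 3), though the guanylate-binding protein genes are near-identical and their split is uncertain. The 2 interferon lists share no gene.

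The promoters of these genes share letters. The 250 bases before the start of transcription, from RefSeq on the build GRCm38.p6, were searched on both strands for an interferon response motif, the letters GAAA, any 2 bases and GAAA again. It was found in 10 of 20 interferon-stimulated genes with a promoter in the table (50%) and in 11 of 15 interferon-gamma-induced genes (73.3%), against 936 of 27025 genes (3.46%). A match is a description of the letters, not a measured binding site. The promoters of 4 genes that the results turn on are shown 5′ to 3′ on the gene's strand, with the matching letters in capitals, to show where the motif sits before the start, and overlapping matches run together in Isg15. Ifit3 is at chr19:34583279-34583528 on the plus strand, Cxcl10 at chr5:92348890-92349139, Isg15 at chr4:156200819-156201068 and Rsad2 at chr12:26456453-26456702, these 3 on the minus strand.
Ifit3: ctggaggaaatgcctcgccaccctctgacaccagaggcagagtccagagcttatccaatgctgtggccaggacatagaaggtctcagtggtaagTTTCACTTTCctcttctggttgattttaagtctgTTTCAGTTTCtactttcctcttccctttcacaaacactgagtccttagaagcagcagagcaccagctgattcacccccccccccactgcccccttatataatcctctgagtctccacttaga
Cxcl10: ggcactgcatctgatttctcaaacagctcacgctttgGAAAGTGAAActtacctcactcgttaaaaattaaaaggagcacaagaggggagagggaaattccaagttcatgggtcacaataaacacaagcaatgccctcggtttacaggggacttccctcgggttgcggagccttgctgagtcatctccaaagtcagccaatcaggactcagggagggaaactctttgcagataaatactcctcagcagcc
Isg15: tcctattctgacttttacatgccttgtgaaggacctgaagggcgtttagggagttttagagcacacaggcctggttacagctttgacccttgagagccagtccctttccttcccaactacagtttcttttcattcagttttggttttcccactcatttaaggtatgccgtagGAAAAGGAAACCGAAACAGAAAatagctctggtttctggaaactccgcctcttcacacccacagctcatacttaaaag
Rsad2: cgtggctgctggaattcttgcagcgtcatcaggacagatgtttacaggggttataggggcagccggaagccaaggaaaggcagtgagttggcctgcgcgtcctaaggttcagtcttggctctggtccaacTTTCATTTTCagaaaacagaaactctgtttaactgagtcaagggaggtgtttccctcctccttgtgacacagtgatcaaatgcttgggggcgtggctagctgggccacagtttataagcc

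Chemokine genes were mostly higher. Of 28, 25 reached the minimum, 16 of them only through the tumors. Of the 8 at the minimum in both groups, 6 were called higher and 2 lower, against 28.6% and 32.4% of such genes. Ccl2, which draws monocytes, was present in culture at 60.2, 32.05 and 57.3 TPM and stood at 485, 529 and 478 TPM in tumors (log2 change 3.34, SE 0.2403, limma adjusted p = 4.24e-05). Ccl6 went from 0.11, 0.35 and 0.67 TPM to 274, 403 and 331 TPM (log2 change 7.94, SE 0.1803, limma adjusted p = 2.66e-09). Cxcl3, a neutrophil attractant, stood at 257, 183 and 279 TPM in cultures and 178, 151 and 189 TPM in tumors (log2 change -0.45, SE 0.162, limma adjusted p = 0.0399). Cxcl5 and Ccl20 were the others called lower, at log2 changes of -0.84 and -1.16. These 3 calls fell to 1 without culture 1, culture 3 or tumor 2, and Cxcl3 also lost its call without tumor 1 or 3. Complement genes summed to 48.3, 60.5 and 44.2 TPM and 1321, 1061 and 1266 TPM, and of the 6 at the minimum in both groups 5 were called higher, against 28.6% of such genes.

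Checkpoint and regulatory genes were mostly higher. Of the 5 at the minimum in both groups, 3 were called higher and 1 lower, against 28.6% and 32.4% of such genes. The other 11 of the 16 reached it only through the tumors. Cd274, the gene of PD-L1, stood at 1.04, 0.78 and 1.05 TPM in cultures and 49.7, 54.3 and 43.4 TPM in tumors (log2 change 4.68, SE 0.132, limma adjusted p = 7.84e-09). Pdcd1, the gene of its receptor PD-1, was at 0 in every culture and at 6.8, 4.3 and 5.46 TPM in tumors (limma adjusted p = 1.04e-06), and Ctla4 at 0 and 5, 5.68 and 6.13 TPM (limma adjusted p = 2.54e-07). Tgfb1 was expressed in both, at 130.3, 136 and 113 TPM and 246, 250.3 and 267 TPM (log2 change 1.01, SE 0.0815, limma adjusted p = 5.92e-06). Havcr2, TIM-3, was not called, at a log2 change of 0.36, with 9.88, 7.93 and 7.7 TPM in cultures.

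Cell division genes fell. All 28 genes of cell cycle and DNA replication were at the minimum in both groups, and 27 were called lower and 1 higher, against 32.4% and 28.6% of such genes, with a median of -1.17. Their sum was 4348, 4554 and 4051 TPM in cultures and 1860.5, 1699 and 1619 TPM in tumors. Pcna, the sliding clamp of DNA polymerase, stood at 589, 615 and 592 TPM and 227, 244 and 211 TPM (log2 change -1.396, SE 0.0674, limma adjusted p = 2.06e-07). Rrm2, a subunit of the enzyme that makes DNA precursors, stood at 347, 337 and 312 TPM and 73.8, 66.8 and 66.7 TPM (log2 change -2.25, SE 0.0732, limma adjusted p = 1.73e-08). Cdk1, the mitotic kinase, stood at 322, 362 and 318 TPM and 184, 158 and 161 TPM (log2 change -0.99, SE 0.08205, limma adjusted p = 6.95e-06). Mki67 was lower as well, with less room between the groups, at 54.1, 61.01 and 34.9 TPM and 26.7, 27.4 and 31.4 TPM (log2 change -0.76, SE 0.192, limma adjusted p = 0.00818). Genes of DNA replication fell further than some mitotic genes, with -2.04 for Cdc6 and -1.796 for Mcm5 beside -0.48 for Bub1b and -0.41 for Cdc20. Ccnb2 alone was called higher, at 31.5, 40.9 and 33.8 TPM in cultures and 57.7, 49.9 and 45.04 TPM in tumors (log2 change 0.51, SE 0.125, limma adjusted p = 0.00552). Without tumors 1 and 3, 24 genes were called lower and none higher, and Mki67 and Ccnb2 were among those not called. Bub1b was also not called without culture 1, culture 2 or tumor 2. The share of cancer cells among the cells of a tumor was not measured, and its part in these falls was not tested.

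Many cell cycle promoters carry the letters CCAAT, and some carry TTTGAA, letters of a repressor element known from cell cycle genes. On both strands CCAAT was found in 18 of 24 listed genes with a promoter in the table (75%) against 10133 of 27025 genes (37.5%), and TTTGAA in 7 of 24 (29.2%) against 4934 (18.3%). The promoters of 3 genes that fell are shown, with matches of either motif in capitals. Ccnb1 is at chr13:100786487-100786736 and Cdk1 at chr10:69352913-69353162 on the minus strand, and Rrm2 at chr12:24708004-24708253 on the plus strand.
Ccnb1: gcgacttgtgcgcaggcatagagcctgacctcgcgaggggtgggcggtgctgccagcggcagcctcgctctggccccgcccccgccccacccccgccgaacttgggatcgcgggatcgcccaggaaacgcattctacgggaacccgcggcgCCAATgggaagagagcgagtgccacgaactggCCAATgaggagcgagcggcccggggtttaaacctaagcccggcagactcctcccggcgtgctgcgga
Cdk1: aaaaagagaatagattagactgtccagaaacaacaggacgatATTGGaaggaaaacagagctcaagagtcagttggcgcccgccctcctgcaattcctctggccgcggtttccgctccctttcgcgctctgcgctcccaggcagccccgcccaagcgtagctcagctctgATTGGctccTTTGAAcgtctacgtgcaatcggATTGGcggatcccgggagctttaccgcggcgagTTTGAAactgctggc
Rrm2: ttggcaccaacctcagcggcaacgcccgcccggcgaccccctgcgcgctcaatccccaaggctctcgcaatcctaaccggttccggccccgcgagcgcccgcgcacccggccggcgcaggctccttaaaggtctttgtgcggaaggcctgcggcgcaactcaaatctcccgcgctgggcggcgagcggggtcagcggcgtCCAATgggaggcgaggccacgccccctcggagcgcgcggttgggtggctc

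Ribosome biogenesis genes fell as a whole. All 20, which encode factors that make and process ribosomal RNA in the nucleolus, were called lower, against 32.4% of genes at the minimum in both groups, with a median of -1.52. Npm1, nucleophosmin, stood at 3847, 3489 and 3818 TPM in cultures and 1214, 1439 and 1409.5 TPM in tumors (log2 change -1.46, SE 0.0751, limma adjusted p = 3.096e-07). Ncl, nucleolin, stood at 1162, 992 and 1112 TPM and 365, 397 and 355 TPM (log2 change -1.54, SE 0.0751, limma adjusted p = 2.15e-07). Nop56, of the small nucleolar ribonucleoprotein, stood at 764, 630.1 and 715 TPM and 135, 129 and 134 TPM (log2 change -2.39, SE 0.0773, limma adjusted p = 1.68e-08). In none of these did a tumor overlap a culture. The 79 cytosolic ribosomal protein genes had no common direction: 29 were called higher and 22 lower, against 28.6% and 32.4% of genes at the minimum in both groups, with a median of 0.04. Their sum was 194656, 201800 and 215823 TPM and 205024, 212832 and 202798 TPM (exact two-sided permutation test, p = 0.70). Under median-of-ratios scaling those counts were 14 and 15, and without tumors 1 and 3 they were 18 and 13. Rplp1 was lower, at 10214 ± 631 TPM in cultures and 5819 ± 168 TPM in tumors (SD, n = 3, log2 change -0.81).

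**Figure D3:**
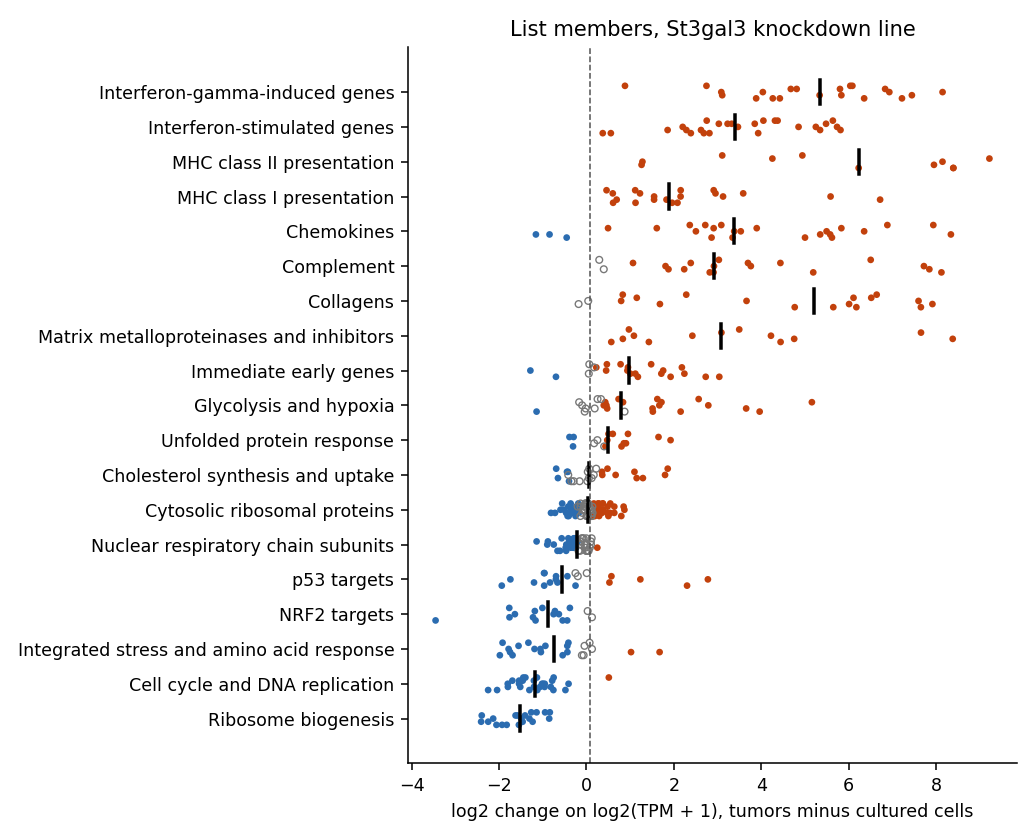
Log2 change of each gene of each list, knockdown tumors minus knockdown cultures, on log2(TPM + 1). Filled points were called (orange higher, blue lower), open points were not, black bars are list medians and the dashed line is the median of all genes, 0.08; all 20 ribosome biogenesis genes lie left of it.

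Amino acid synthesis genes were among those that fell. Of 22 genes of the integrated stress and amino acid response, all at the minimum in both groups, 15 were called lower and 2 higher, against 32.4% and 28.6% of such genes, with a median of -0.74. Phgdh, the first enzyme of serine synthesis, stood at 497, 449.8 and 495 TPM in cultures and 181, 168 and 143 TPM in tumors (log2 change -1.55, SE 0.0917, limma adjusted p = 7.63e-07). Shmt2, of mitochondrial one-carbon metabolism, had the largest fall of the list, from 199.6, 179 and 179 TPM to 48.2, 44.8 and 45.9 TPM (log2 change -1.98, SE 0.07495, limma adjusted p = 4.396e-08). Atf4, the factor that drives many of these genes, stood at 279, 245 and 279 TPM and 179, 174 and 198 TPM (log2 change -0.54, SE 0.0789, limma adjusted p = 2.59e-04). The 2 called higher were Ddit3, at 12.7, 12.9 and 12.8 TPM and 20.4, 25.8 and 37.4 TPM, and Vldlr, a lipoprotein receptor, at 8.15, 14.6 and 6.33 TPM and 27.2, 31.9 and 35.7 TPM, which was not called without tumors 1 and 3. The letters TGATGNAA were in 5 of 19 list promoters (26.3%) against 1056 of 27025 (3.91%).

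Targets of NRF2, the factor of the oxidative stress response, fell. Of 16, all at the minimum in both groups, 14 were called lower, against 32.4% of such genes, with a median of -0.88. Nqo1, a quinone reductase, fell most, from 55.05, 34.6 and 46.97 TPM to 3.75, 2.53 and 3.37 TPM (log2 change -3.45, SE 0.184, limma adjusted p = 3.91e-07). Tkt and Pgd, of the pentose phosphate route, stood at 241 ± 10.4 TPM and 229.8 ± 15.6 TPM in cultures and at 186 ± 9.16 TPM and 101 ± 6.26 TPM in tumors (SD, n = 3). Hmox1, which macrophages also express, was not called, at 77.4, 47 and 63.9 TPM and 59.6, 58.1 and 71.5 TPM.

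Targets of p53 split. Of 20, 17 were at the minimum in both groups. Of these, 11 were called lower and 3 higher, against 32.4% and 28.6% of such genes, with a median of -0.66. Over all 20, 12 were called lower and 5 higher, against 29.3% and 36.2% of all genes, with a median of -0.55. The 5 were 3 without tumors 1 and 3. Mdm2, the ligase that degrades p53, stood at 390.1, 372 and 337 TPM in cultures and 147, 156 and 174 TPM in tumors (log2 change -1.199, SE 0.08402, limma adjusted p = 2.31e-06). Cdkn1a, the cell cycle inhibitor p21, fell less, at 219, 216 and 204 TPM and 186, 171 and 180.1 TPM (log2 change -0.25, SE 0.0648, limma adjusted p = 0.00779). Fas, a death receptor, was higher, at 1.19, 0.87 and 0.9 TPM and 11.02, 13.4 and 13.5 TPM (log2 change 2.78, SE 0.142, limma adjusted p = 2.94e-07), and Pmaip1 was at 0 in every culture and at 3.39, 3.81 and 4.69 TPM in tumors. Trp53 itself, chosen after its values were seen, stood at 256, 229 and 217 TPM in cultures and 124, 117 and 121 TPM in tumors (log2 change -0.95, SE 0.0757, limma adjusted p = 5.49e-06).

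Hypoxia genes were higher, while most core glycolysis genes were not called. Of 26 genes, 17 were called higher and 1, Higd1a, lower, against 36.2% and 29.3% of all genes, and the median was 0.79. Of the 22 at the minimum in both groups, 13 were called higher and 1 lower, against 28.6% and 32.4% of such genes. Ndrg1, induced by low oxygen, stood at 49.5, 88.9 and 46.7 TPM in cultures and 338, 381 and 551 TPM in tumors (log2 change 2.79, SE 0.316, limma adjusted p = 6.602e-04). Slc2a1, the glucose transporter GLUT1, stood at 62.7, 84.4 and 57.99 TPM and 166, 186 and 242 TPM (log2 change 1.52, SE 0.177, limma adjusted p = 1.54e-04). Car9, carbonic anhydrase IX, stood at 1.03, 1.16 and 0.79 TPM and 9.02, 7.05 and 7.64 TPM (log2 change 2.16, SE 0.147, limma adjusted p = 1.98e-06). Gapdh, Ldha, Aldoa, Pgk1, Pgam1 and Eno1 were not called, at log2 changes between -0.17 for Gapdh and 0.25 for Pgk1. Culture 2 stood apart here: Bnip3, a mitophagy gene, was at 61.5, 173 and 62.4 TPM in the cultures and 239.9, 282 and 359 TPM in the tumors (log2 change 1.72, SE 0.455, limma adjusted p = 0.0204). Bnip3 was not called without culture 1 or culture 3. Without culture 2 the list had 21 genes called higher, and 13 without culture 1 or without culture 3. Without knockdown tumors 1 and 3, 9 were called higher. The letters ACGTG were in 15 of 25 list promoters (60%) against 4998 of 27025 (18.5%), and GCGTG in 17 (68%) against 8338 (30.9%).

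Immediate early genes, which cells switch on within minutes of a stimulus, were mostly higher. Of 22, all at the minimum in both groups, 17 were called higher and 2 lower, against 28.6% and 32.4% of such genes, with a median of 0.98. Fos stood at 3.25, 2.84 and 2.4 TPM in cultures and 27.3, 20.04 and 50.9 TPM in tumors (log2 change 3.04, SE 0.305, limma adjusted p = 6.74e-05), and Junb at 91.97, 83.2 and 83.4 TPM and 242, 220.02 and 267 TPM (log2 change 1.48, SE 0.0859, limma adjusted p = 6.72e-07). The 2 lower were Fosl1, at 254, 227 and 187 TPM and 99.4, 90.4 and 81.9 TPM (log2 change -1.28, SE 0.118, limma adjusted p = 1.46e-05), and Myc, at 202, 187 and 187 TPM and 117, 118 and 119 TPM (log2 change -0.697, SE 0.0635, limma adjusted p = 1.26e-05). The labels do not describe tissue handling before RNA extraction, and its part in these levels was not tested. Unfolded protein response genes moved less: of 16, all at the minimum in both groups, 10 were called higher and 3 lower, against 28.6% and 32.4% of such genes, with a median of 0.49. Without tumors 1 and 3 the counts were 7 and 0. Hspa5, the chaperone BiP, stood at 316, 251 and 308 TPM and 374, 388 and 415 TPM (log2 change 0.44, SE 0.0927, limma adjusted p = 0.00264), and Xbp1 at 41.7, 37.7 and 34.3 TPM and 148, 136 and 156 TPM (log2 change 1.93, SE 0.0926, limma adjusted p = 2.02e-07). Hspa5 was not called without tumors 1 and 3.

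Lipid genes had no common direction. Of 25 cholesterol genes, 23 were at the minimum in both groups. Of these, 7 were called higher and 5 lower, against 28.6% and 32.4% of such genes. Over all 25, 9 were called higher and 5 lower, against 36.2% and 29.3% of all genes, with a median of 0.07. That median turned to -0.05 without knockdown tumor 1 and to -0.17 without tumors 1 and 3. The 5 lower were 3 without culture 2, tumor 2 or tumor 3, and the 9 higher were 5 without tumors 1 and 3. Insig1 was higher, at 12.7, 17.96 and 12.9 TPM in cultures and 55.8, 44.8 and 57.3 TPM in tumors (log2 change 1.799, SE 0.152, limma adjusted p = 7.73e-06). Fasn, fatty acid synthase, was lower, at 172, 151 and 142 TPM and 70.7, 60.7 and 72.7 TPM (log2 change -1.18, SE 0.0976, limma adjusted p = 6.98e-06). Acly, which feeds it with acetyl-CoA, was higher, at 189, 207 and 164 TPM and 310.5, 288 and 302 TPM (log2 change 0.69, SE 0.0882, limma adjusted p = 1.14e-04). Fabp5, a fatty acid carrier, went from 0.08, 0.16 and 0.13 TPM to 253, 323 and 219 TPM (log2 change 7.87, SE 0.146, limma adjusted p = 1.004e-09). The letters TCACNCCAC were in 1 of 17 cholesterol promoters (5.88%) against 331 of 27025 (1.22%).

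Most nuclear respiratory chain genes were called lower or not called. Of 46 nuclear genes, all at the minimum in both groups, 24 were called lower and 1, Uqcrfs1, higher, against 32.4% and 28.6% of such genes, with a median of -0.21. Uqcrfs1 was not called without culture 2 or 3 or without any 1 tumor. Of 13 genes of the mitochondrial genome, 2 were called higher and 7 lower, against 28.6% and 32.4% of genes at the minimum in both groups. Their summed level was nevertheless higher in tumors, at 32262 ± 638 TPM against 28944 ± 485 TPM in cultures (SD, n = 3, exact two-sided permutation test, p = 0.10). The sum rose by 3317 TPM, less than the rise of mt-Atp8 alone. mt-Co1 and mt-Atp8 were the 2 higher, at 5175 ± 132 TPM and 12838 ± 88.2 TPM in cultures and 8645 ± 364 TPM and 16343 ± 867 TPM in tumors (SD, n = 3). Under quantile normalization mt-Atp8 had a change of 0 and was not called. That method gives this value to any gene of equal rank in every library, so the lost call cannot test its rise. mt-Cytb was lower, at 3472 ± 126 TPM and 2106 ± 103 TPM (SD, n = 3). Targets of YAP and TEAD were called higher in 5 of 14 and lower in 5, against 36.2% and 29.3% of all genes. Of the 12 at the minimum in both groups, 3 were called higher and 5 lower, against 28.6% and 32.4% of such genes. Clock genes were called higher in 5 of the 14 at the minimum in both groups and lower in 2, against 28.6% and 32.4% of such genes. Without culture 1 or 2 or tumor 1 or 2, 1 was called lower. Both list medians changed sign under quantile normalization. Genes of epithelial-mesenchymal transition were mostly higher, with 9 of the 11 at the minimum in both groups called higher and 2 lower, against 28.6% and 32.4% of such genes. The summed level of the list was similar, at 6730 ± 270 TPM in tumors and 6868 ± 587 TPM in cultures (SD, n = 3, exact two-sided permutation test, p = 0.90). Fn1, fibronectin, stood at 227, 289 and 183 TPM and 820.1, 837 and 1133 TPM (log2 change 2.001, SE 0.198, limma adjusted p = 1.53e-04), and Sparc at 145, 128 and 117 TPM and 589, 593 and 685 TPM (log2 change 2.25, SE 0.0936, limma adjusted p = 8.199e-08), both of which fibroblasts also make. Spp1, osteopontin, was among the 5 most abundant genes of the tumors, at 4356, 5469 and 4491 TPM in cultures and 9417, 10521 and 9998 TPM in tumors (log2 change 1.07, SE 0.0867, limma adjusted p = 6.99e-06).

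A small set of genes was strong in every culture and all but missing from every tumor. Of 7436 genes at 10 TPM or more in every knockdown culture, 35 (0.471%) were under 1 TPM in every knockdown tumor, and 29 of the 35 met the same limits in the control line. At 50 TPM the counts were 12 of 2579 (0.465%) and 9. The median ratio of tumor to culture over the 7436 genes was 0.891, and its 10th and 90th percentiles were 0.453 and 1.58. The limits that define the set put its genes below that range by themselves. The set was defined after its values were seen, and no test is attached to it. Abca13, a large lipid transporter, had the lowest change among genes whose name is not predicted or a clone, at 117, 138 and 155 TPM in cultures and 0.07, 0.04 and 0.02 TPM in tumors (log2 change -7.03, SE 0.1305, limma adjusted p = 1.004e-09). Gnmt, a methyltransferase best known from liver, stood at 56.1, 70.3 and 56.9 TPM and 0.06, 0.31 and 0.23 TPM (log2 change -5.69, SE 0.143, limma adjusted p = 4.14e-09). Cblc stood at 60.6, 70.2 and 65.7 TPM and 0.26, 0.11 and 0.37 TPM (log2 change -5.74, SE 0.1295, limma adjusted p = 2.24e-09), and Nos1ap at 59.4, 62.1 and 66.8 TPM and 0.5, 0.41 and 0.44 TPM (log2 change -5.46, SE 0.113, limma adjusted p = 1.52e-09). Dnah2, Arhgap26, Ninj2 and Fbxo47 were also among the 8 lowest changes once genes listed at 0 in any library or with predicted or clone names were set aside. Their culture means ran from 65.1 ± 8.41 TPM for Ninj2 to 178 ± 17.4 TPM for Dnah2, and their tumor means from 0.352 ± 0.112 TPM for Ninj2 to 1.11 ± 0.0937 TPM for Arhgap26 (SD, n = 3).

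Among the genes listed at 0 in every knockdown tumor, and leaving aside predicted and clone names, Svs5, a seminal vesicle protein gene, was the highest in culture, at 119, 106 and 83.8 TPM. Bhmt, of methionine metabolism, stood at 58.8, 53.4 and 54.2 TPM, and Tex21, a testis-expressed gene, at 59.9, 29.1 and 60.1 TPM. Svs4, Slc6a16 and Svs6 followed among genes so named, at 37.98 ± 7.84 TPM, 25.1 ± 7.21 TPM and 12.5 ± 1.98 TPM (SD, n = 3). Being chosen as the highest in culture among those at 0 in tumors, these genes have levels that are a description. Digestive enzymes of the pancreas were also lower in tumors. Of 13 exocrine genes, 10 reached the minimum, 7 of them only through the cultures. Of the 3 that did in both groups 2 were called lower, against 32.4% of such genes. The list summed to 185, 176 and 186 TPM in cultures and 65.1, 56.2 and 57.7 TPM in tumors. Ctrb1, chymotrypsinogen, stood at 22.6, 22.7 and 20.3 TPM in cultures and 0, 0.07 and 0 TPM in tumors (log2 change -4.48, SE 0.127, limma adjusted p = 8.17e-09). Cela1 was the exception, at 47.4, 48.3 and 49.8 TPM and 59.3, 53.1 and 54.1 TPM, and was not called. The trypsinogen and amylase genes are near-identical, and their split is uncertain. Cyp1a1, the classic target of the aryl hydrocarbon receptor and chosen after its values were seen, stood at 19.7, 12.6 and 18.9 TPM and 0.07, 0.05 and 0.02 TPM (log2 change -4.09, SE 0.178, limma adjusted p = 1.09e-07).

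**Figure D4:**
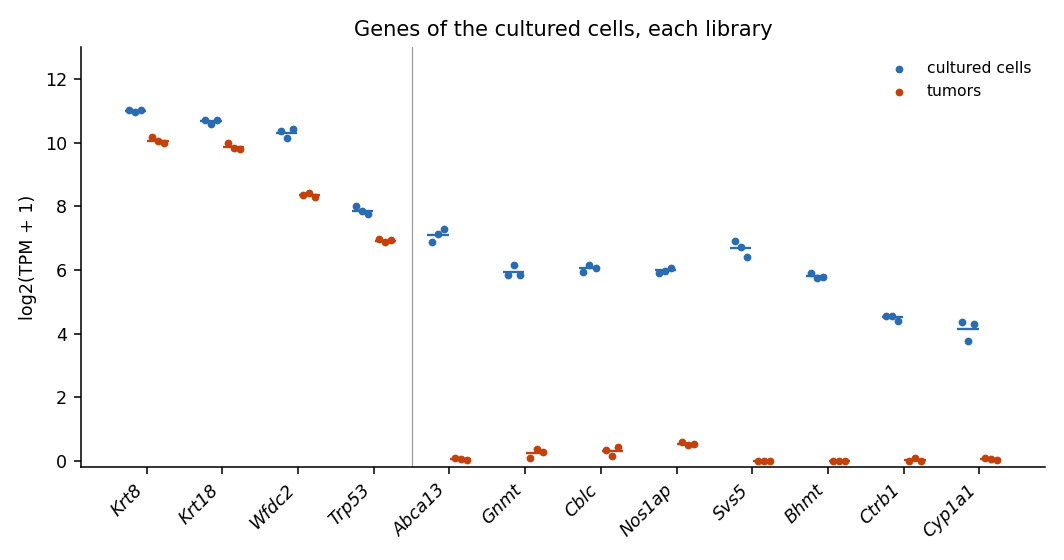
Level of 12 genes, as log2(TPM + 1), in each of 3 knockdown cultures (blue) and 3 knockdown tumors (orange), with bars at the mean. Left of the line, Krt8, Krt18, Wfdc2 and Trp53 fell by 1.95 or less on the log2 scale; right of it, 8 genes clear in culture lie near 0 in every tumor.

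Xist, the RNA that silences an X chromosome in female cells and chosen after its values were seen, stood at 0.01, 0.13 and 0.01 TPM in the knockdown cultures and 15.3, 14.4 and 17.9 TPM in the knockdown tumors (log2 change 4, SE 0.141, limma adjusted p = 2.73e-08). The cultured line was thus near 0 for Xist, and the tumors were not.

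The control line was set beside these values. In control tumors against control cultures 5816 genes (40.5%) were called higher and 3740 (26%) lower, of 14358 tested. Of 13982 genes tested in both lines, 7989 were called in the same direction in both and 13 in opposite directions. That is 87.0% of the calls of the knockdown line and 85.7% of those of the control line, and Pearson's r of the changes across genes was 0.959, where genes are not independent replicates. The difference between the 2 changes, tested as an interaction over all 12 libraries, was called for 161 of 14804 genes (1.09%), 117 higher in the knockdown line (0.79%) and 44 lower (0.297%). The count depends on the setting: it was 26 higher and 13 lower with a pseudocount of 0.1, and 68 to 150 higher and 20 to 86 lower when 1 library was left out.

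Interferon genes held many of the called differences. Over all genes tested, 0.79% had a difference called higher in the knockdown line. Of the 26 interferon-stimulated genes, 14 changed more in the knockdown line, with a median difference of 1.26, and 13 to 16 did so with 1 library left out, but 4 with a pseudocount of 0.1. Ifit3 stood at 44.1, 43.1 and 36.1 TPM in knockdown tumors and 11.02, 11.9 and 13.3 TPM in control tumors, with all cultures of both lines at or under 1 TPM (difference 1.74, SE 0.1699, limma adjusted p = 0.00224). Its split from the near-identical Ifit3b is uncertain. Rsad2, viperin, stood at 11.1, 10.3 and 9.33 TPM and 3.57, 2.71 and 3.42 TPM in the same order (difference 1.47, SE 0.17, limma adjusted p = 0.00255). Isg15 stood at 134, 132 and 99.9 TPM and 38.8, 41.6 and 45.8 TPM (difference 1.38, SE 0.235, limma adjusted p = 0.0147), and its difference was not called without knockdown tumors 1 and 3. The Isg15 difference also lost its call with a pseudocount of 0.1 (limma adjusted p = 0.136) and without a filter on low values (limma adjusted p = 0.0537). Of the 21 interferon-gamma-induced genes, 10 changed more, 5 to 17 with 1 library left out and 5 with a pseudocount of 0.1. The count was 5 or 6 without any 1 of the 6 cultures or without knockdown tumor 1 or 2, and 17 without control tumor 1. Without knockdown tumors 1 and 3 together it was 4, and that of the interferon-stimulated genes was 11. Cxcl10 stood at 134, 105 and 90.3 TPM in knockdown tumors and 16.7, 27.9 and 24.3 TPM in control tumors (difference 2.36, SE 0.274, limma adjusted p = 0.00255). Cd274 stood at 49.7, 54.3 and 43.4 TPM and 16.4, 19.8 and 24.3 TPM (difference 1.33, SE 0.205, limma adjusted p = 0.00951).

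Mast cell and cytotoxic genes followed. The counts below stand beside the 0.79% of all genes tested whose difference was called higher. Of 8 mast cell genes tested, 6 changed more in the knockdown line, 2 to 6 with 1 library left out and 0 with a pseudocount of 0.1. The count was 2 without knockdown tumor 1, and 3 without knockdown tumor 2, any control culture, or knockdown culture 1 or 3; it was also 2 without knockdown tumors 1 and 3 together. Cpa3 stood at 16.6, 14.7 and 13.04 TPM in knockdown tumors and 5.65, 3.11 and 4.74 TPM in control tumors (limma adjusted p of the difference = 0.00839). Of 14 cytotoxic and natural killer cell genes, 4 changed more, 3 to 6 with 1 library left out and 1 with a pseudocount of 0.1. Gzmb stood at 65.1, 102 and 58.6 TPM and 29.4, 26.6 and 28.4 TPM, and Gzma, granzyme A, at 10.03, 16.4 and 13.7 TPM and 1.56, 2.12 and 2.52 TPM (limma adjusted p of the difference = 0.0159 and 0.00224). Class I genes H2-T23, Tapbp, Tapbpl and Psme2 changed more, 4 of 20, or 2 to 7 with 1 library left out. That count was 2 without knockdown tumor 1 or 2, knockdown culture 1 or 2, or control culture 1 or 3, and 7 without knockdown tumor 3.

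Fewer genes had a difference in the other direction. Tff2, a trefoil peptide, stood at 4.02, 4.09 and 3.74 TPM in knockdown tumors and 50.03, 28.8 and 22.5 TPM in control tumors (difference -2.74, SE 0.318, limma adjusted p = 0.00255), with no overlap. With a pseudocount of 0.1 the Tff2 difference was not called (limma adjusted p = 0.067). Sparcl1, a matrix protein of vessels and stroma, stood at 22.5, 19.2 and 24.6 TPM and 48.8, 50.1 and 66.5 TPM (difference -1.37, SE 0.199, limma adjusted p = 0.00669). Its difference was also not called with a pseudocount of 0.1 (limma adjusted p = 0.0699). Mest, an imprinted gene, stood at 11.6, 9.99 and 8.56 TPM and 28.4, 21.4 and 24.96 TPM (difference -1.47, SE 0.196, limma adjusted p = 0.00501). Avil fell in the knockdown line, from 13.9, 12.7 and 12.5 TPM in cultures to 3.92, 5.92 and 4.36 TPM in tumors, and did not in the control line, at 11.3, 14.8 and 13.1 and 17.7, 13.6 and 12.9 TPM (difference -1.46, SE 0.217, limma adjusted p = 0.00777), a difference not called without knockdown tumors 1 and 3. Fap of fibroblasts, Abcc9 of pericytes, Ccl22 and the clock gene Nr1d1 were the list members called lower. The differences of Abcc9, Ccl22 and Nr1d1 were not called in most fits with 1 library left out, and that of Fap was not called without knockdown tumors 1 and 3. The median difference was -0.37 over 15 endothelial genes and -0.41 over 18 collagens, beside -0.07 over all genes tested. These differences share the tumors and cultures with the comparisons above and are not independent of them.

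**Figure D5:**
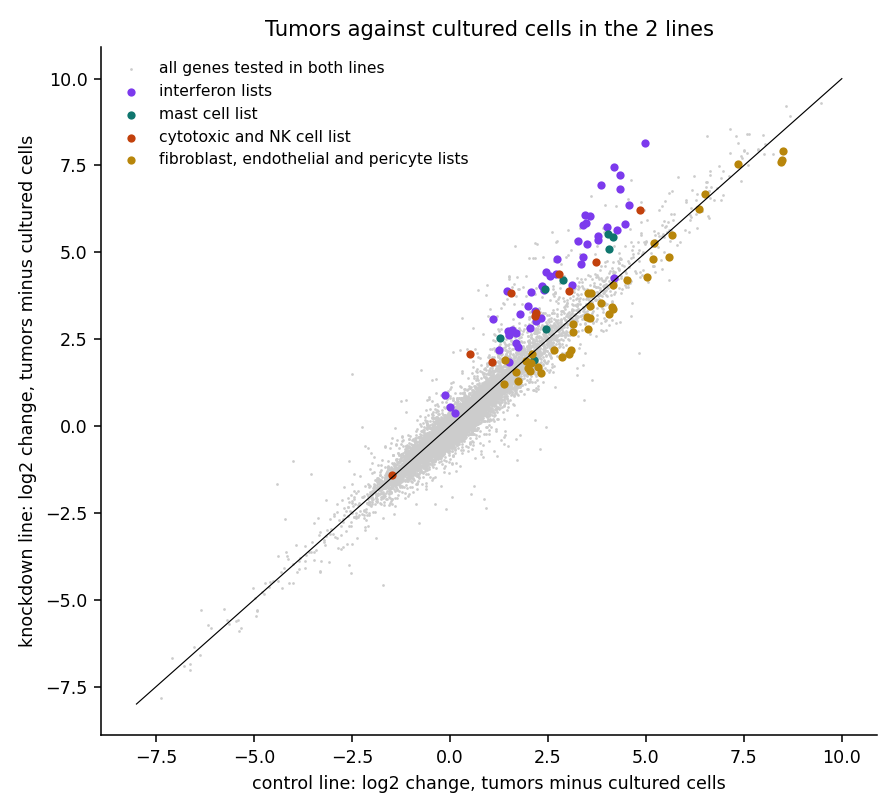
Log2 change of each gene, tumors minus cultures, in the control line (x axis) and the knockdown line (y axis), on log2(TPM + 1), for 13982 genes tested in both; the line marks equal changes. Interferon and cytotoxic list members lie above the line and mast cell members mostly so, while endothelial members lie on or below it.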

How the data were processed

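The authors deposited 1 table per sample with gene identifier, name, length and TPM, per the file headers. Per the submitters' processing notes, RSEM, HISAT and fastp were used with the build GRCm39. Depth and strand use are not given in the sources used here, and genes that are near-identical or overlap are uncertain. TPM was rescaled to 1000000 per library over shared identifiers. Knockdown tumors and cultures (3 against 3) were fitted with limma 3.58.1 (R 4.3.3), trended and robust, on log2(TPM + 1), and the difference between the lines with an interaction term over 12 libraries. P-values are two-sided with Benjamini-Hochberg adjustment over all genes tested, and every adjusted p is limma's. Summed levels of lists were compared with an exact permutation test. Medians include genes listed at 0 in culture, whose fitted change depends on the pseudocount. The tests were tried on simulated data. For the knockdown comparison 91% of changes of 1 and 97% of changes of 2 (log2) were recovered, with 12 false calls among 14428 genes. For the difference the values were 72% and 97%, with 8 false calls among 14804 genes. Recovery for genes near the minimum, or where most genes are called as here, was not tested.

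Members and lists were chosen with earlier results of these data known. Named genes are St3gal3, the 8 highest and 8 lowest changes among genes above 0 in all 6 libraries, the 6 highest among genes at 0 in one group (both without predicted, clone, immunoglobulin or T cell receptor segment names), each list's defining and most abundant members, the 6 smallest p per direction of the difference, and the 5 highest levels per group. Other list members named as examples or extremes were chosen after their values were seen. Replicate numbers did not pair the samples: deviations of tumors and cultures with the same number correlated at -0.01, -0.04 and -0.15. Promoter sequences are from RefSeq. Alternatives were another pseudocount, other filters, scalings and fits, a replicate block and leaving libraries out. Figures used matplotlib 3.10.9.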

Additional observations from a re-analysis of the deposited data

Results flagged for a closer look

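The change from culture to tumor differed between the lines, by the interaction test over 12 libraries (limma, adjusted p under 0.05), for the 37 genes below. Each value is the change of the knockdown line minus that of the control line on log2(TPM + 1). Where a gene is listed at 0 in the cultures of a line, the value depends on the pseudocount. Most of these calls were lost under at least 1 of the alternatives described below. Those of Dusp6, Ndufa1, Psme2, Socs1, Prf1, Abcc9, Ccl22 and Nr1d1 were lost in most fits with 1 library left out.

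St3gal3 itself differed by 1.202. Among interferon-stimulated genes the differences were 1.74 for Ifit3, 1.77 for Ifi44, 1.52 for Ifit1, 1.47 for Rsad2, 1.38 for Isg15 and 0.96 for Bst2. Among interferon-gamma-induced genes they were 2.36 for Cxcl10, 1.99 for Cxcl11, 1.33 for Cd274, 2.06 for Gbp7, 2.08 for Irgm1 and 0.998 for Socs1. Class I presentation gave 0.87 for H2-T23, 1.001 for Tapbp and 0.84 for Psme2.

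Cytotoxic genes gave 2.26 for Gzma, 1.37 for Gzmb, 0.997 for Prf1 and 0.995 for Klrd1. Mast cell genes gave 1.52 for Cpa3 and 1.26 for Tpsb2. Other leukocyte and complement genes gave 2.08 for Ly6c2, 0.79 for Cd53 and 1.302 for C1s2. Dusp6, an immediate early gene, differed by 0.601 and Ndufa1, of respiratory complex I, by 0.44.

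In the other direction the differences were -2.74 for Tff2, -1.47 for Mest, -0.76 for Phlda2, -1.37 for Sparcl1, -1.098 for Kcne4, -1.46 for Avil, -1.11 for Ccl22, -0.89 for Fap, -1.41 for Nr1d1 and -0.95 for Abcc9.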

How the results depend on the processing

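For the knockdown comparison, quantile normalization gave 2112 genes called lower by a log2 change of at least 1, and a test against a log2 change of 1 gave 1587 higher and 582 lower, beside 2554 and 1271. With 1 library left out the counts were 2414 to 2687 higher and 1208 to 1360 lower. The difference between the lines, 117 higher and 44 lower, was less stable: 26 and 13 with a pseudocount of 0.1, 66 and 25 without a filter, 195 higher with median-of-ratios scaling, 191 higher with quantile normalization, and 68 to 150 higher and 20 to 86 lower with 1 library left out. Each culture library of either line, control tumor 3 and knockdown tumors 1 and 3 moved one of these counts by over 1.5 times. Median-of-ratios scaling moved the median difference by 0.11 and the share called higher from 72.7% to 84.1%. Replicate numbers are shared by label only: with the replicate number as a block the difference had 77 higher and 22 lower, and the knockdown comparison 2551 and 1273. Without knockdown tumors 1 and 3, an alternative chosen after seeing the data because they hold more muscle and plasma cell transcripts, the difference had 29 lower, with the lone tumor assumed to vary like the other samples. In that fit Krt19, Vim, St3gal5, St6gal1, Slc35a1, Calr, Socs1, Cxcl3, Mki67, Ccnb2, Bub1b, Vldlr, Bnip3, Hspa5 and Uqcrfs1 were not called in the knockdown comparison. Fewer members were tested there in the dendritic cell list (6 in place of 9) and the skeletal muscle list (4 in place of 9). Sialyltransferases had 4 called higher and 0 lower, and epithelial-mesenchymal transition genes 11 and 1. Quantile normalization left 5 of 9 dendritic cell genes called. Beside the cholesterol list, the medians of 3 lists turned in some settings: Schwann cell genes to -0.47 with quantile normalization and to -0.05 without tumors 1 and 3, YAP and TEAD targets to -0.03 with quantile normalization, to -0.06 without knockdown culture 3 or with a minimum of 1 TPM in 3 libraries, and to -0.11 without tumors 1 and 3, and clock genes to -0.27 with quantile normalization. Of 196 genes of the text called in the knockdown comparison, 21 lost their call under at least 1 alternative other than the test against a log2 change of 1, and of 40 called for the difference 31 did. Among these, Cd160 and Xcr1 alone changed direction, to -0.19 and -0.13 with quantile normalization. The cause of each move was not tested. Depth, which would limit low genes, is unknown.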
